A study of Mus musculus with 8 samples.

Results

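The genes described here are 34 genes of ribosome biogenesis and MYC-driven growth. They were chosen by name, as every gene of a fixed list that a probe of the array carries through its RefSeq accession, and all 34 were found among the 19747 genes named on the array. The list holds nucleolar scaffold proteins, core proteins of small nucleolar ribonucleoproteins (snoRNPs), RNA polymerase I and its factors, assembly factors of the small and the large ribosomal subunit, and growth enzymes together with *Cdk4* and *Tfrc*. MYC pairs with MAX and binds E-boxes, the hexamer CACGTG, near many genes of ribosome production, nucleotide and polyamine synthesis, and it is known there as an activator. MAX also pairs with MGA in the Polycomb complex PCGF6-PRC1, of which L3MBTL2 is a subunit and which represses germ cell-related genes in ESCs. Ribosome production itself starts in the nucleolus, where RNA polymerase I transcribes the ribosomal RNA precursor and snoRNPs and assembly factors modify, cut and fold it into subunits.

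The samples were male mouse VV3 ESCs, a line with a *Vasa*::Venus transgene whose fluorescence reports *Vasa* (*Ddx4*), kept in serum and LIF on mitomycin C-treated STO feeder cells. They received siRNA against *L3mbtl2* (*L3mbtl2*-KD, 4 samples) or non-silencing AllStars siRNA (control, 4 samples), and the RNA of each was read on a separate one-colour Agilent array. The methods describe the *L3mbtl2*-KD cells as *Vasa*-positive cells purified by FACS. Whether the control cells were sorted is not given in the sources used here, so knockdown and sorting cannot be told apart. The labels call the samples of a group biological replicates. Each value is log2 of the spot intensity minus the 75th percentile of its array, which was between 791 and 1038 in intensity units, and 59.5 to 66.6% of the spots of an array were well above background. A member was called when its adjusted p was under 0.05, and a fold change on this scale is *L3mbtl2*-KD minus control. The number of arrays limits the precision.

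The siRNA target was measured first. *L3mbtl2* (NM_145993) was at 0.27, -0.18, -0.21 and -0.31 in control replicates 1 to 4 and at -1.45, -1.26, -1.58 and -1.73 in *L3mbtl2*-KD replicates 1 to 4. All 4 knockdown samples lay below all controls, and the log2 fold change was -1.40 (SE 0.15, limma adjusted p = 0.00094). The reporter gene *Ddx4* was at 0.87, 0.99, 0.99 and 0.85 in control and at 3.87, 3.62, 3.70 and 3.82 in *L3mbtl2*-KD ESCs, a log2 fold change of 2.83 (SE 0.087, limma adjusted p = 4.9e-06). This gene was also the basis of the sort.

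Against these changes, the ribosome biogenesis and growth genes moved little. All 34 members were well above background on all 8 arrays and all were tested. One member, *Bop1*, was higher in *L3mbtl2*-KD ESCs at an adjusted p under 0.05 in limma (1 of 34), while 9.36% of the 13648 genes tested were higher by the same rule. At an unadjusted p under 0.05 limma gave 4 higher, against 16.9% of all genes. The study's one-way test gave 5 (16.9% of all genes), or 0 after adjustment (7.86%). No member was lower (0 of 34 in limma, and 0 at an unadjusted p under 0.05 in limma and in the one-way test), against 10.8% of all genes in limma, and 18.8% and 17.8% of them at an unadjusted p under 0.05 in limma and in the one-way test. No member passed 2-fold in either direction, whatever its p, compared with 2.36% of all genes higher and 2.96% lower at an adjusted p under 0.05. None passed 1.5-fold either with all samples. With 1 sample left out *Bop1* passed 1.5-fold and was called without *L3mbtl2*-KD replicate 2 (log2 fold change 0.62) and without control replicate 4 (0.60), and *Pes1* passed it without being called without control replicate 1 (0.74, adjusted p = 0.073) and without *L3mbtl2*-KD replicate 2 (0.67, adjusted p = 0.16). With all samples neither share of members was above that of all genes, and without *L3mbtl2*-KD replicate 2 the share called higher was slightly above it (3 of 34, or 8.82%, against 8.43%).

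The precision allows a bound on most members. The 95% confidence interval of the change lay within 2-fold in both directions for 33 of the 34 members, with *Pes1* as the exception, and within 1.5-fold for 30. Of all genes tested, 83.6% had an interval within 2-fold and 57.2% within 1.5-fold. Most members lay slightly above 0. Their median log2 fold change was 0.095, with 29 of 34 above 0, compared with a median of -0.011 and 48.4% above 0 over all genes. The members' median was 0.080 on the first slide and 0.10 on the second, next to -0.019 and -0.0015 over all genes. With the arrays scaled in 3 other ways the members' median was 0.088 (normexp), 0.094 (quantile) and 0.12 (median centring), where the median of all genes was 0.0092, 0.0060 and 0.015. The members' median varied among the samples of a group with an SD of 0.089, whereas the SD of a single member over control samples had a median of 0.14.

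**Figure D1:**
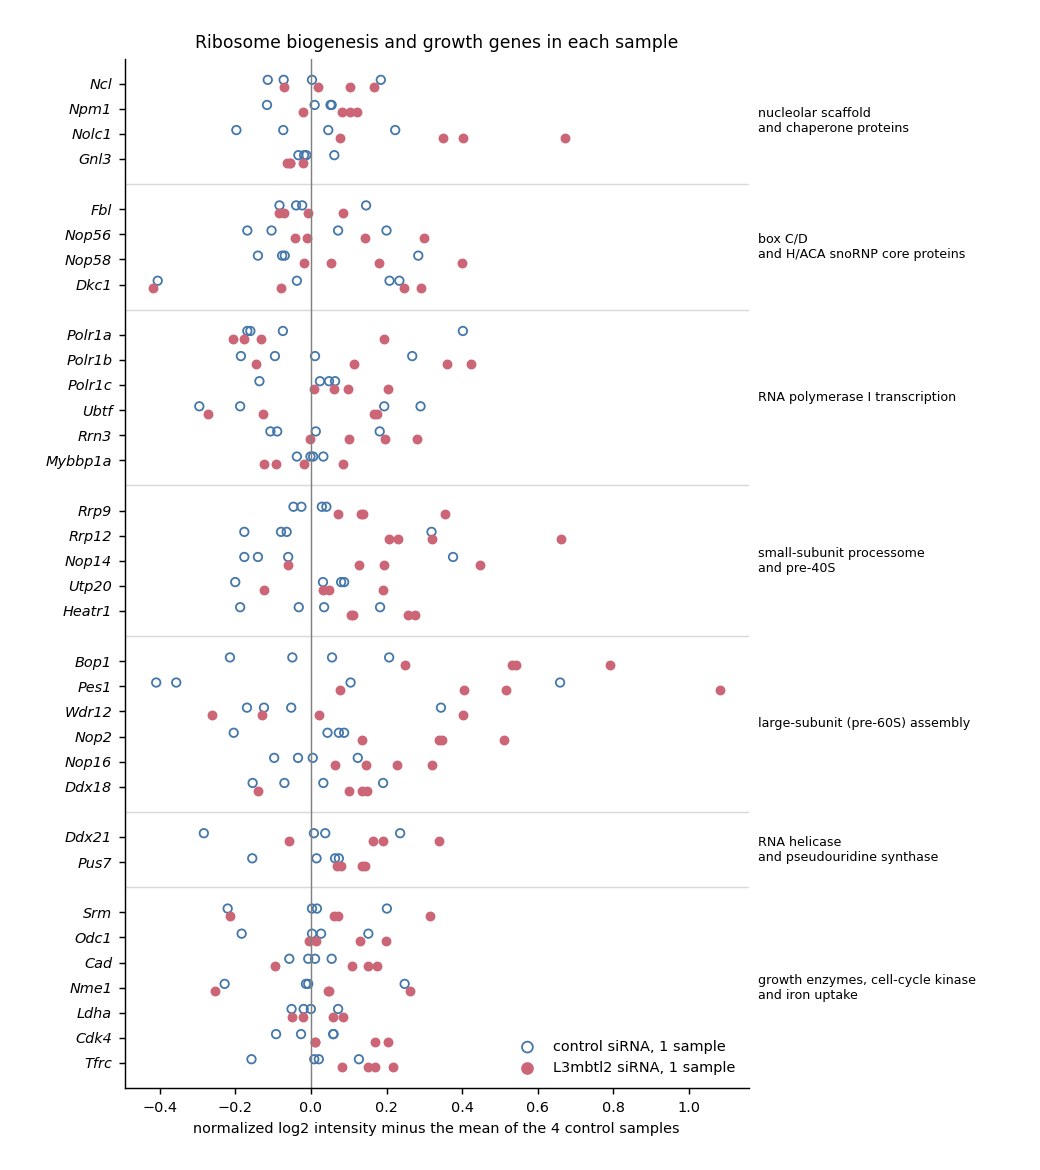
Normalized log2 intensity of each member in each of the 8 samples, as the difference from the mean of the 4 control samples, with open circles for control and filled circles for L3mbtl2-KD and rows grouped by role. The groups overlap for all members but Rrp9, Bop1 and Nop2, and the widest spread within a group is that of Pes1.

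The samples of both groups carried replicate numbers, and samples with the same number deviated together, so the fit was repeated with the replicate number as a block. In this paired fit 6 of 34 members were higher, namely *Nolc1*, *Rrp12*, *Heatr1*, *Bop1*, *Pes1* and *Nop2*, and 0 were lower. Over all genes the replicate block gave 22.2% higher and 23.8% lower, so that the share of members called higher was below that of all genes here also. Of the blocked alternatives, chosen after seeing the data, it was above that of all genes with median centring (10 of 34, against 24.5%) and without the samples of replicate number 3 (5 of 34, against 12.3%). The groups did not overlap for 3 members, all higher (*Rrp9*, *Bop1* and *Nop2*), and for 0 lower, whereas 12.7% of all genes were higher and 13.8% lower without overlap. In all 4 replicate numbers the *L3mbtl2*-KD sample was above its control for 18 members (52.9%, against 31.1% of all genes), and in all 4 it was below for 1 member, *Gnl3* (2.94%, against 32.7%).

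**Figure D2:**
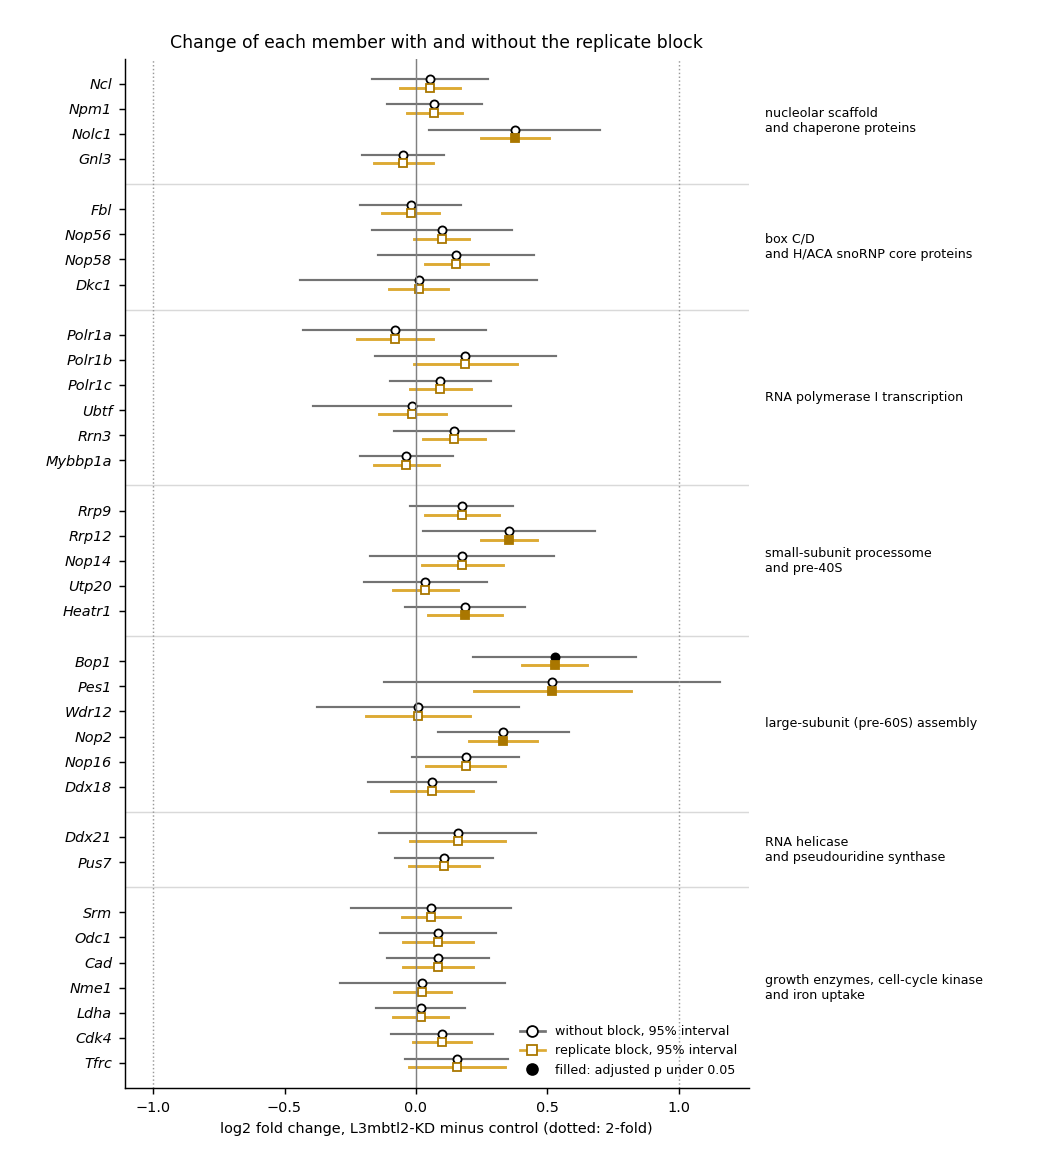
Log2 fold change of each member (L3mbtl2-KD minus control) with its 95% confidence interval, as circles without a block and as squares with the replicate number as a block, filled where the adjusted p was under 0.05. Only Bop1 is filled without the block, 6 members are filled with it, and only the interval of Pes1 without the block reaches past 2-fold (dotted lines).

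The promoters of the members were searched for the E-box to which MYC-MAX, and MAX-MGA, bind. In the RefSeq promoter table (GRCm38.p6, 250 bases before to 50 after each start), 29 of the 34 members had an entry. *Npm1*, *Fbl*, *Rrp12*, *Bop1* and *Srm* had none. CACGTG, which reads the same on both strands, was in the promoter of 9 of these 29 (31.0%), compared with 8.09% of the 27025 genes in the table and 11.6% of the 10901 genes that were also tested. The 9 were *Rrn3*, *Mybbp1a*, *Utp20*, *Pes1*, *Nop2*, *Pus7*, *Nme1*, *Ldha* and *Cdk4*. Among the other genes of ribosome production described further on, the hexamer was in 9 of 35 small-subunit assembly genes (25.7%), 9 of 44 large-subunit assembly genes (20.5%), 2 of 13 RNA polymerase I genes (15.4%), 6 of 57 ribosomal protein genes (10.5%) and 0 of 18 snoRNP and modification genes. It was in 11 of 23 germ-cell genes of the PCGF6-PRC1 arm (47.8%) and in 5 of 11 genes of the MYC and MAX network (45.5%). The window mattered for some of these lists: with 100 bases before the start the hexamer was in 9 members still, but in 2 ribosomal protein genes (3.51%), 3 genes of the MYC and MAX network (27.3%) and 7.40% of the tested genes. The median log2 fold change was 0.098 over the 9 members with the hexamer (-0.037 to 0.52) and 0.095 over the 20 without (-0.080 to 0.38), and the difference was not tested. A match describes the letters of this window and not binding.

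The promoters of 4 of these genes are printed because their genes had the largest changes among the members with an E-box (*Pes1*, *Nop2*, *Rrn3*) or the most copies of it (*Cdk4*), with each CACGTG in capitals. All are on the plus strand, at chr16:13780449-13780748 for *Rrn3*, chr11:3963725-3964024 for *Pes1*, chr6:125131633-125131932 for *Nop2* and chr10:127063285-127063584 for *Cdk4*. The hexamer lay 215 and 48 bases before the start of *Rrn3*, 60 bases before that of *Nop2*, just after that of *Pes1*, and 172, 118, 98 and 11 bases before that of *Cdk4*.
Rrn3: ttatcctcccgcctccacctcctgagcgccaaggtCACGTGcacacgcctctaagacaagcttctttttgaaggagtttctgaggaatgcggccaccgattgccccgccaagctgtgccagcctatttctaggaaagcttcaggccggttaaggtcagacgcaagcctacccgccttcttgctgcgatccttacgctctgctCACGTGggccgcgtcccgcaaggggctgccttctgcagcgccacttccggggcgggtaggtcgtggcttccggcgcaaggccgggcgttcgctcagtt
Pes1: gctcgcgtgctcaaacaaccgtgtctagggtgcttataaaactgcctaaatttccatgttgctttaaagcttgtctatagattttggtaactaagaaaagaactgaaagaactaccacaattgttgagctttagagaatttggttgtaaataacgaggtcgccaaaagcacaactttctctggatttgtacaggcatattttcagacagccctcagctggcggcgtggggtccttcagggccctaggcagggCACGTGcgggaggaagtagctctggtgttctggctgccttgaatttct
Nop2: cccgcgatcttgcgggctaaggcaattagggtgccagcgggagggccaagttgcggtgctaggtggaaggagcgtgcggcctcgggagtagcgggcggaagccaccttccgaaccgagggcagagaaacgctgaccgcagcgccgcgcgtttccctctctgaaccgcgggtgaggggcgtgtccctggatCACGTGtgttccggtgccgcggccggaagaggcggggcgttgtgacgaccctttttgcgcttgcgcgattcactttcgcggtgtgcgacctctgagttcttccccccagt
Cdk4: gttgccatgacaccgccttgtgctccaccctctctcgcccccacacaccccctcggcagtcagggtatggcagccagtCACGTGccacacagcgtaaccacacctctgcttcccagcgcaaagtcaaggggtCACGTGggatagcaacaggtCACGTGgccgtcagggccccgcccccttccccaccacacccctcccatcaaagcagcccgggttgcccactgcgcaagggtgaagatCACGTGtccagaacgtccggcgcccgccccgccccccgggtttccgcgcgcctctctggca

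Among the 4 nucleolar scaffold and chaperone genes, *Nolc1*, whose product shuttles between nucleolus and cytoplasm and binds snoRNPs, had the largest difference. *Nolc1* (NM_001039352) was at 3.50, 3.38, 3.62 and 3.80 in control replicates 1 to 4 and at 3.92, 3.65, 3.98 and 4.25 in *L3mbtl2*-KD replicates 1 to 4. Each knockdown sample was above the control of its number, but the groups overlapped. The log2 fold change of 0.38 (SE 0.14) had an adjusted p of 0.10 in limma and of 0.0055 with the replicate block, and without *L3mbtl2*-KD replicate 2 it was 0.049. A second *Nolc1* probe gave -0.02. *Npm1*, the histone chaperone of the granular component, had a log2 fold change of 0.071, and *Ncl*, which binds ribosomal RNA precursors, 0.054, a direction that turned when its probes were averaged (-0.070). *Gnl3*, the nucleolar GTPase also called nucleostemin, was at 2.57, 2.56, 2.65 and 2.58 in control and 2.57, 2.53, 2.54 and 2.53 in *L3mbtl2*-KD ESCs. Its log2 fold change of -0.048 (SE 0.069) was within the spread between samples, although with normexp or quantile scaling its groups no longer overlapped, with *L3mbtl2*-KD lower.

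Of the 4 core proteins of box C/D and H/ACA snoRNPs, which guide methylation and pseudouridylation of ribosomal RNA, 0 were called in limma (0 at an unadjusted p under 0.05 and in the one-way test) and 0 with the replicate block. *Nop58*, a box C/D core protein, had the largest difference of the 4. It was at 4.21, 3.78, 3.85 and 3.85 in control and at 4.32, 3.90, 3.97 and 4.10 in *L3mbtl2*-KD ESCs. Replicate 1 was the highest sample of either group, and the log2 fold change was 0.15 (SE 0.13, limma adjusted p = 0.45 without and 0.051 with the replicate block). Each knockdown sample was above the control of its number, by 0.12, 0.12, 0.13 and 0.25, and with the block *Nop58* was called higher under normexp and under median centring. *Nop56*, its partner in the same particle, was at 0.098 in log2 fold change, and was higher in each pair too, by 0.099, 0.13, 0.095 and 0.071 (adjusted p = 0.60 without and 0.11 with the block). The methyltransferase *Fbl* (-0.020) and the pseudouridine synthase *Dkc1* (0.010) were close to 0, and their sign turned under other scalings (*Fbl* with median centring, *Dkc1* with normexp and with quantile normalization).

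The 6 genes of RNA polymerase I transcription had a median log2 fold change of 0.039, with 3 above 0 and 3 below. *Polr1b*, the second largest subunit of the enzyme, had the largest absolute difference, at 0.70, 0.25, 0.34 and 0.45 in control and 0.79, 0.29, 0.55 and 0.86 in *L3mbtl2*-KD ESCs. The groups overlapped, and the log2 fold change of 0.19 (SE 0.15) had a limma adjusted p of 0.43. Over the alternatives run it was between 0.11 and 0.30, the latter without *L3mbtl2*-KD replicate 2. *Polr1a*, the largest subunit, was at 3.20, 2.64, 2.63 and 2.73 in control and at 2.995, 2.67, 2.60 and 2.62 in *L3mbtl2*-KD ESCs. Replicate 1 stood above the other samples in both groups, and the log2 fold change was -0.080 (SE 0.15, limma adjusted p = 0.76), which turned to 0.054 without control replicate 1. The initiation factor *Rrn3*, whose promoter is printed above, was at 0.14, the shared subunit *Polr1c* at 0.093 and the repressor *Mybbp1a* at -0.037. *Ubtf*, which bends ribosomal DNA for initiation, was at -0.014 on the probe that stood for it, with a sign that turned with quantile normalization or median centring. A second *Ubtf* probe gave -0.29.

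The 5 genes of the small-subunit processome and pre-40S particles were all above 0, with a median log2 fold change of 0.18. *Rrp12*, an export factor of pre-ribosomes, was at -0.58, -0.98, -1.07 and -0.96 in control and at -0.24, -0.67, -0.69 and -0.58 in *L3mbtl2*-KD ESCs. Control replicate 1 was as high as *L3mbtl2*-KD replicate 4, yet the difference within each replicate number was similar, at 0.34, 0.31, 0.38 and 0.38. The log2 fold change of 0.35 (SE 0.14) had an adjusted p of 0.12 in limma and of 0.0041 with the replicate block. Without control replicate 1 the unblocked adjusted p was 0.044 in limma, the lowest over the samples left out, and the highest was 0.27.

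*Rrp9*, a protein of the U3 snoRNP, was at 1.76, 1.74, 1.82 and 1.83 in control and at 1.93, 1.86, 1.92 and 2.14 in *L3mbtl2*-KD ESCs. Its groups did not overlap, but the log2 fold change was small at 0.18 (SE 0.086, limma adjusted p = 0.19). *Heatr1*, a processome protein needed for ribosomal RNA transcription, had a log2 fold change of 0.19, with an adjusted p of 0.23 in limma and of 0.047 with the replicate block. *Nop14* (0.18) and *Utp20* (0.036), both of the processome, did not pass in either fit.

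The largest differences were in large-subunit assembly, with a median log2 fold change of 0.26 over 6 genes, all above 0. *Bop1* (NM_013481), which with *Pes1* and *Wdr12* forms the PeBoW complex needed to process the 32S precursor, was at 2.49, 2.33, 2.60 and 2.75 in control replicates 1 to 4 and at 3.08, 2.79, 3.07 and 3.33 in *L3mbtl2*-KD replicates 1 to 4. All knockdown samples lay above all controls. The level rose by 1.44-fold (log2 fold change 0.53, SE 0.14, limma adjusted p = 0.030 without and 0.0023 with the replicate block). The log2 fold change was 0.53 on the first slide and 0.53 on the second, and with the slide as a block the adjusted p was 0.010. The call was lost with most single samples left out. Without control replicate 1, 2 or 3 or *L3mbtl2*-KD replicate 1, 3 or 4 the adjusted p of *Bop1* was between 0.057 and 0.071, at log2 fold changes of 0.44 to 0.55, and the count of members higher fell to 0, apart from *Rrp12* without control replicate 1. Without control replicate 4 *Bop1* was called (adjusted p = 0.034), and without *L3mbtl2*-KD replicate 2 the count was 3 (*Nolc1*, *Bop1* and *Nop2*, against 8.43% of all genes). Without the filter on dim probes, when more probes were tested, the adjusted p of *Bop1* was 0.073.

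The other 2 genes of the PeBoW complex were not called without the replicate block. *Pes1* was at 1.13, 0.11, 0.58 and 0.06 in control and at 1.55, 0.55, 0.87 and 0.99 in *L3mbtl2*-KD ESCs. Each knockdown sample was above the control of its number, but its samples were the most widely spread of the members, and the log2 fold change of 0.52, close to that of *Bop1*, (SE 0.28) had an adjusted p of 0.23 in limma and of 0.022 with the replicate block. On a second *Pes1* probe it was -0.068. *Wdr12* was at 0.28, -0.11, -0.18 and -0.23 in control and 0.34, -0.32, -0.19 and -0.04 in *L3mbtl2*-KD ESCs, a log2 fold change of 0.0079 (SE 0.17, limma adjusted p = 0.98).

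*Nop2*, the methyltransferase of 28S ribosomal RNA, was at 4.30, 4.01, 4.25 and 4.28 in control and at 4.55, 4.34, 4.56 and 4.72 in *L3mbtl2*-KD ESCs, without overlap. The log2 fold change of 0.33 (SE 0.11) had an adjusted p of 0.067 in limma, 0.038 with the slide as a block and 0.0076 with the replicate block, and 0.044 without *L3mbtl2*-KD replicate 2. *Nop16*, a pre-60S factor known as a MYC target, was at 0.19 and the helicase *Ddx18* at 0.060, and neither passed in either fit.

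The RNA helicase *Ddx21* and the pseudouridine synthase *Pus7* had log2 fold changes of 0.16 (SE 0.13) and 0.11 (SE 0.081). Over the alternatives run these were between 0.065 and 0.24 for *Ddx21* and between 0.044 and 0.13 for *Pus7*. *Ddx21* was at 2.26, 1.74, 2.03 and 2.06 in control and at 2.22, 1.97, 2.19 and 2.36 in *L3mbtl2*-KD ESCs, with the groups overlapping and a limma adjusted p of 0.44. A second *Ddx21* probe gave 0.20.

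The 7 growth genes were also close to 0, with a median log2 fold change of 0.084. *Tfrc*, the transferrin receptor, had the largest difference in the analysis as reported. On the probe that stood for it, it was at 2.95, 2.84, 2.67 and 2.83 in control and 2.90, 2.99, 2.97 and 3.04 in *L3mbtl2*-KD ESCs. The log2 fold change was 0.16 (SE 0.086, limma adjusted p = 0.24), with 0.052 on the first slide and 0.26 on the second. Other *Tfrc* probes gave 0.073 and 0.0089. With the probes of a gene averaged, *Tfrc* was at 0.079, below *Cdk4* at 0.126. With quantile normalization it was at 0.10, below *Cad* at 0.18. *Cdk4*, the G1 kinase with 4 E-boxes in the promoter printed above, was at 5.40, 5.32, 5.25 and 5.40 in control and at 5.55, 5.35, 5.35 and 5.51 in *L3mbtl2*-KD ESCs, a log2 fold change of 0.098 (SE 0.085, limma adjusted p = 0.46). The polyamine enzymes *Odc1* (0.084) and *Srm* (0.058), the pyrimidine enzyme *Cad* (0.084), the nucleoside diphosphate kinase *Nme1* (0.025) and lactate dehydrogenase *Ldha* (0.018) did not pass in either fit. The sign of *Nme1* turned with quantile normalization, and that of *Ldha* when its 3 probes were averaged.

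How the members varied among samples was tied to the replicate number. For 24 of 34 members (70.6%) the same replicate number was highest in both groups, compared with 56.9% of all genes tested. Over the members, the median SD was 0.14 among control samples and 0.073 among the differences within a replicate number, against 0.18 and 0.13 over all genes. The median difference of the members was 0.069, 0.073, 0.093 and 0.13 in replicate numbers 1 to 4, with 22, 27, 28 and 32 of the 34 above 0. Replicate 2 was lowest in control for *Bop1*, *Nop2*, *Nolc1* and *Nop58* and remained lowest in *L3mbtl2*-KD ESCs.

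**Figure D3:**
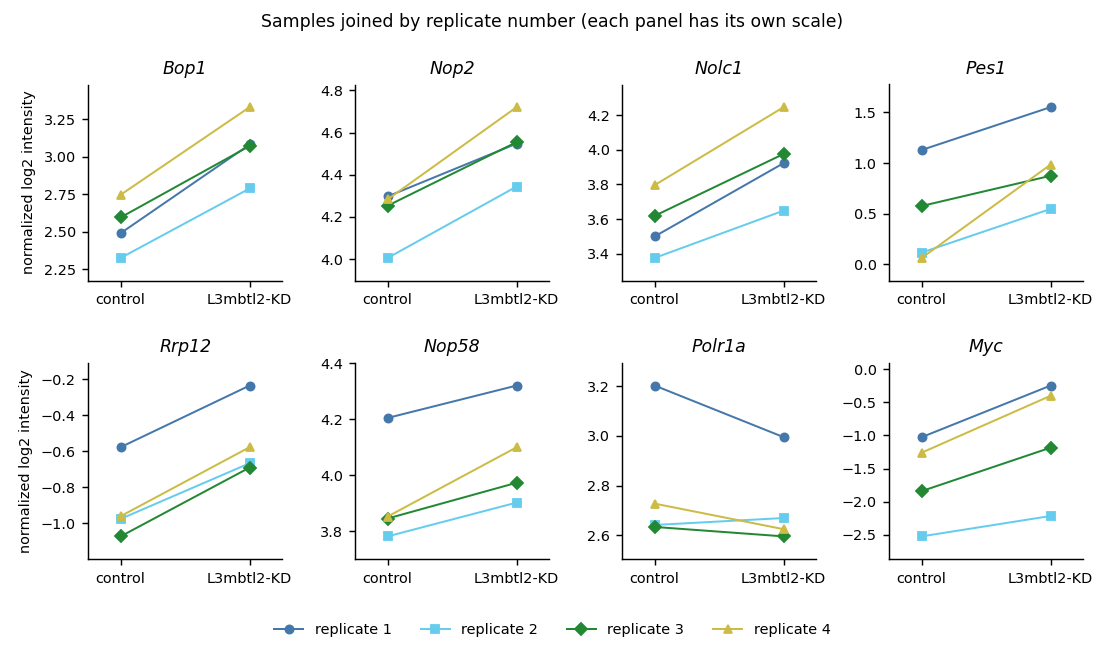
Normalized log2 intensity of 8 genes in control and L3mbtl2-KD samples, joined by replicate number, with a scale of its own in each panel. For Bop1, Nop2, Nolc1, Pes1, Rrp12, Nop58 and Myc all 4 lines go up, and for Polr1a 3 of 4 lines go down.

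Several members were measured by more than 1 probe. The 34 members had 54 tested probes, and 14 members had more than 1. For 9 of these 14 all probes had a log2 fold change of the same sign. The exceptions were *Ncl*, *Nolc1*, *Pes1*, *Odc1* and *Ldha*, and the widest gap, 0.59, was that of *Pes1*. Over all genes, counted by 1 probe each, limma called 9.36% higher and 10.8% lower, and 22.2% and 23.8% with the replicate block. The probe counts of the members all lay below these shares. Over the 54 probes 1 was higher in limma (*Bop1*) and 0 lower. With the replicate block 8 were higher, among them second probes of *Nop56* (0.19, adjusted p = 0.027) and *Ddx21* (0.20, adjusted p = 0.017), and 3 lower, which were second probes of *Ncl* (-0.19), *Ubtf* (-0.29) and *Ldha* (-0.19). The blocked calls of *Nolc1* and *Pes1* therefore hold for 1 of their 2 probes each, whereas *Bop1*, *Rrp12*, *Heatr1* and *Nop2* had a single probe.

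**Figure D4:**
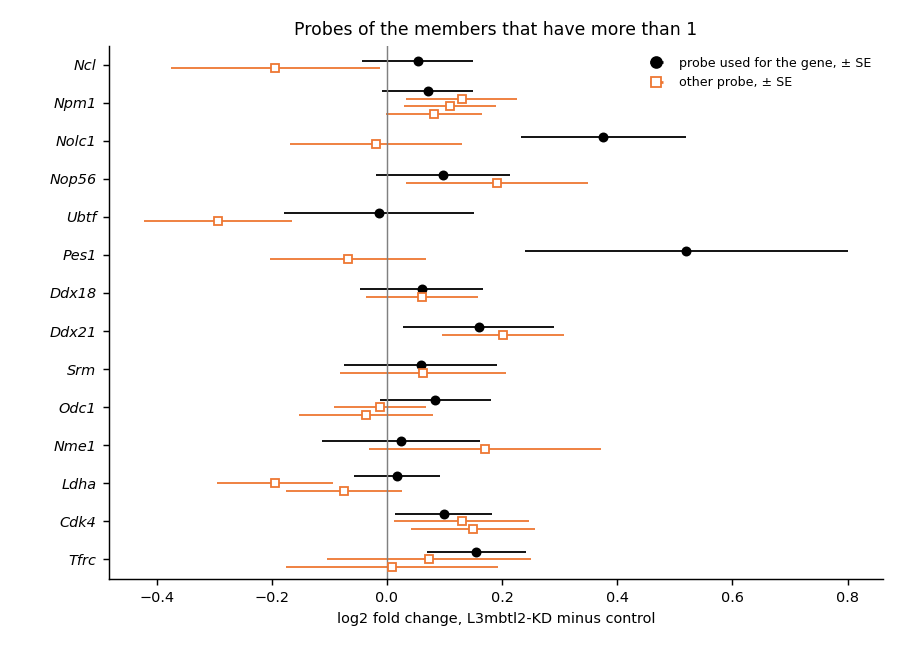
Log2 fold change (L3mbtl2-KD minus control) with its standard error for every probe of the 14 members that had more than 1, with filled circles for the probe that stood for the gene and open squares for the others. The probes of Pes1 differ by 0.59, and those of Ncl, Nolc1, Odc1 and Ldha also lie on both sides of 0.

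The other genes of the same steps were read from fixed lists that leave out the members. Their limma counts stand beside 9.36% of all genes higher and 10.8% lower. Of 43 other small-subunit assembly genes 7 were higher in *L3mbtl2*-KD ESCs (16.3%) and 0 lower in limma (0 lower at an unadjusted p under 0.05, and 1 in the one-way test), with a median log2 fold change of 0.19 and 37 above 0. Of 53 other large-subunit assembly genes 6 were higher (11.3%) and 0 lower in limma (1 lower at an unadjusted p under 0.05, and 1 in the one-way test, also after adjustment), with a median of 0.19 and 44 above 0. With the replicate block 20 of the 43 were higher (46.5%) and 0 lower, and 29 of the 53 were higher (54.7%) and 2 lower, beside 22.2% and 23.8% of all genes. On the 2 slides the medians were 0.15 and 0.21 for the small-subunit list and 0.19 and 0.20 for the large-subunit list, and both medians were above 0 under all 4 other scalings. The unblocked counts fell to 2 and 3 without *L3mbtl2*-KD replicate 1 or 3 or control replicate 2, to 2 and 2 without *L3mbtl2*-KD replicate 4 or control replicate 3, and to 4 and 3 without control replicate 4.

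Among those that rose was *Bysl*, a pre-40S factor, at 2.27, 2.16, 2.28 and 2.39 in control and 2.78, 2.61, 2.78 and 3.11 in *L3mbtl2*-KD ESCs (log2 fold change 0.54, limma adjusted p = 0.015). The processome gene *Wdr46* rose by 0.45 on the log2 scale (adjusted p = 0.037). *Ccdc86*, which is nucleolar, was at 1.23, 1.01, 1.01 and 1.16 in control and 1.80, 1.37, 1.54 and 2.00 in *L3mbtl2*-KD ESCs (log2 fold change 0.57, limma adjusted p = 0.026). *Ebna1bp2*, a pre-60S factor, rose by 0.48 on the log2 scale (adjusted p = 0.016). *Bysl* and *Ebna1bp2* were called with any 1 sample left out. *Wdr46* was not called without *L3mbtl2*-KD replicate 1, 3 or 4 or control replicate 2, 3 or 4 (adjusted p of 0.060 to 0.10), nor *Ccdc86* without *L3mbtl2*-KD replicate 1 or 4 or control replicate 2, 3 or 4 (0.053 to 0.075). None of the 13 genes called in these lists changed 2-fold.

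Of 14 other RNA polymerase I genes 2 were higher and 0 lower in limma (1 lower at an unadjusted p under 0.05, and 1 in the one-way test), with a median of 0.18. These were *Polr2l*, a subunit that all nuclear RNA polymerases share (log2 fold change 0.75, adjusted p = 0.015), and *Polr1e* (0.43, adjusted p = 0.033). Of 23 other snoRNP and ribosomal RNA modification genes 3 were higher and 1 lower, with a median of 0.071. The largest rises were those of *Mettl5*, an 18S methyltransferase (0.57, adjusted p = 0.014), and *Zfp593* (0.41, adjusted p = 0.030), and the fall was that of *Nop53* (-0.47, adjusted p = 0.011). *Zfp593* and *Nop53* are pre-60S factors that the fixed list placed here, so the counts of large-subunit assembly genes above leave them out. With the replicate block the counts were 5 higher and 1 lower of the 14, and 8 higher and 2 lower of the 23. *Polr2l*, *Mettl5* and *Nop53* were called with any 1 sample left out. *Polr1e* was not called without *L3mbtl2*-KD replicate 1, 3 or 4 or control replicate 2, 3 or 4 (adjusted p of 0.059 to 0.094, count 1), nor *Zfp593* without *L3mbtl2*-KD replicate 1 or 4 or control replicate 2, 3 or 4 (0.067 to 0.085). The snoRNP count was 1 without *L3mbtl2*-KD replicate 1 or 4 or control replicate 2 or 3.

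The protein components of the ribosome lay on the other side of 0. Of 78 cytosolic ribosomal protein genes 0 were higher and 1 was lower in limma (0 higher and 12 lower at an unadjusted p under 0.05, and 0 and 19 in the one-way test, or 0 and 7 after adjustment). The median log2 fold change was -0.075, with 21 above 0, and it was below 0 under all 4 other scalings (-0.045 with quantile normalization and -0.049 with median centring). *Rpl23a* was at 6.52, 6.64, 6.68 and 6.75 in control and at 6.10, 6.30, 6.32 and 6.34 in *L3mbtl2*-KD ESCs, a fold change of -0.38 on the log2 scale (SE 0.091, adjusted p = 0.023). With the replicate block 0 were higher and 14 lower (17.9%, against 23.8% of all genes). Without *L3mbtl2*-KD replicate 1 or control replicate 2, 3 or 4 *Rpl23a* was not called (adjusted p of 0.051 to 0.068). The count was 0 without control replicate 2, 3 or 4 and 2 without control replicate 1. The difference between this list and the assembly lists was not tested.

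**Figure D5:**
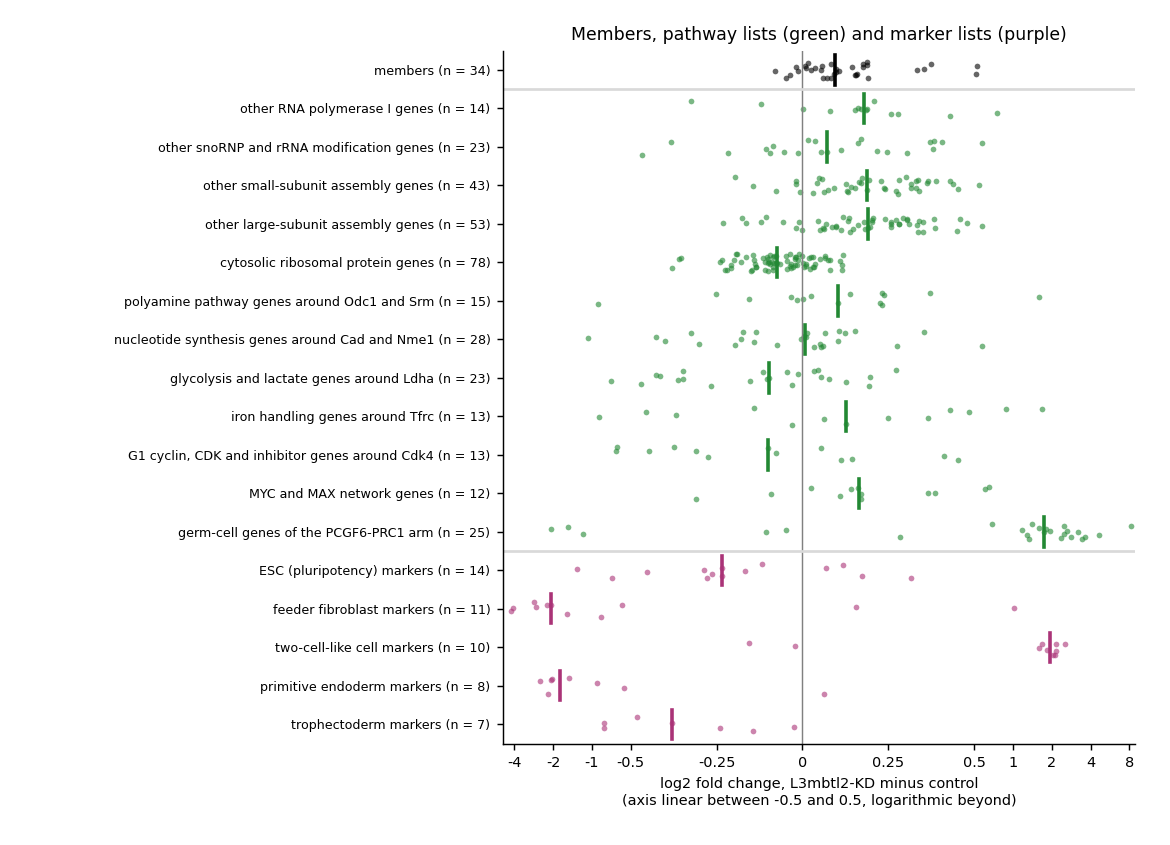
Log2 fold change (L3mbtl2-KD minus control) of each gene tested, for the 34 members, the 12 pathway lists and the 5 marker lists, 1 point a gene, with the median as a vertical bar and an axis that is logarithmic beyond 0.5. The members and the assembly lists centre between 0.095 and 0.19, the ribosomal protein genes at -0.075 and the germ-cell genes at 1.75.

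Around the growth genes, the shares called lay on both sides of those of all genes. Of all genes 9.36% were higher and 10.8% lower in limma, and 22.2% and 23.8% with the replicate block. With the block 33.3% of polyamine, 14.3% of nucleotide synthesis, 0% of glycolysis, 38.5% of iron handling and 23.1% of G1 genes were higher. In the same order 13.3%, 28.6%, 30.4%, 15.4% and 46.2% were lower. Differences between these lists and all genes were not tested. Of 15 polyamine pathway genes 10 were above 0, with a median of 0.10. In limma 1 was higher (0 by the adjusted one-way test) and 1 lower (*Sat2*, -0.89, limma adjusted p = 0.017). With the replicate block 5 were higher and 2 lower. Of 28 nucleotide synthesis genes 1 was higher (*Umps*, which makes UMP, 0.57, adjusted p = 0.029) and 2 lower, the purine enzymes *Adssl1* (-1.07, adjusted p = 0.029) and *Paics* (-0.43, adjusted p = 0.011), and with the block 4 were higher and 8 lower, around a median of 0.0079 (-0.037 with quantile normalization). Of 23 glycolysis and lactate genes 0 were higher and 2 lower in limma (0 higher at an unadjusted p under 0.05 and in the one-way test), *Pdha1* (-0.47, adjusted p = 0.019) and *Pfkm* (-0.27, adjusted p = 0.043), with a median of -0.098 and 0 higher and 7 lower with the block. *Umps* was not called without *L3mbtl2*-KD replicate 1, 3 or 4 or control replicate 2, 3 or 4 (adjusted p of 0.050 to 0.081), while the count was 2 without *L3mbtl2*-KD replicate 2. *Adssl1* was not called without *L3mbtl2*-KD replicate 1 or 4 or control replicate 2 or 3 (0.068 to 0.079), which left a count of 1. *Pdha1* was not called without control replicate 3 or 4 (0.051 to 0.061), and *Pfkm* without any 1 of the 8 samples (0.054 to 0.097), so that the glycolysis count was 0 without control replicate 3 or 4, 2 without *L3mbtl2*-KD replicate 2 and 1 without each of the others.

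Of 13 iron handling genes 2 were higher, the iron exporter *Slc40a1* (1.68, limma adjusted p = 0.0068) and *Ireb2* (0.48, adjusted p = 0.031), and 1 was lower, *Trf* (-0.88, adjusted p = 0.0056). The median was 0.13 (0.084 with normexp), and with the replicate block 5 were higher and 2 lower. *Ireb2* was not called without *L3mbtl2*-KD replicate 1, 2, 3 or 4 or control replicate 3 or 4 (adjusted p of 0.051 to 0.081), the count of 2 was 1 without any *L3mbtl2*-KD sample or control replicate 3 and 4 without control replicate 1, and 2 were lower without control replicate 2. Of 13 G1 cyclin, CDK and inhibitor genes 0 were higher and 2 lower in limma (2 higher at an unadjusted p under 0.05, and 2 in the one-way test, or 0 after adjustment), the inhibitor *Cdkn1b* (-0.45, adjusted p = 0.012) and the kinase *Cdk2* (-0.37, adjusted p = 0.021), with a median of -0.10 and, with the block, 3 higher and 6 lower. *Cdk2* was not called without control replicate 3 or 4 (0.057 to 0.059), and 1 gene was higher without *L3mbtl2*-KD replicate 1 or control replicate 2 or 4.

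The MYC and MAX network was measured through 12 genes, of which 1 was higher and 0 lower in limma (1 lower at an unadjusted p under 0.05, and 0 in the one-way test, and 2 higher without control replicate 4), with a median log2 fold change of 0.17. The share higher was 8.33%, against 9.36% of all genes, of which 10.8% were lower. With the replicate block 4 were higher (33.3%, against 22.2% of all genes) and 1 lower (8.33%, against 23.8%). *Myc* (NM_010849) was at -1.03, -2.52, -1.84 and -1.26 in control replicates 1 to 4 and at -0.25, -2.22, -1.19 and -0.40 in *L3mbtl2*-KD replicates 1 to 4. It varied by 1.497 among controls, with replicate 1 highest and replicate 2 lowest in both groups, and each knockdown sample was above the control of its number. The log2 fold change of 0.65 (SE 0.47) had an adjusted p of 0.38 in limma and of 0.0086 with the replicate block. *Mycn*, the main MYC family gene of ESCs besides *Myc*, was at 2.32, 2.63, 2.65 and 2.41 in control and at 1.93, 2.21, 2.48 and 2.16 in *L3mbtl2*-KD ESCs. It was lower in each replicate number, with a log2 fold change of -0.31 (SE 0.135, limma adjusted p = 0.15, and 0.017 with the block).

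*Max* was at 2.43, 2.34, 2.66 and 2.55 in control and 2.46, 2.45, 2.63 and 2.54 in *L3mbtl2*-KD ESCs, a log2 fold change of 0.025 (SE 0.095, limma adjusted p = 0.89), and *Mga*, its partner in PCGF6-PRC1, was at 0.11. The gene that passed was *Mlxipl*, a glucose-responsive partner of MLX (0.61, adjusted p = 0.0071). *Mlx* (0.37) and *Mxd4* (0.39) passed with the replicate block (adjusted p = 0.0066 and 0.0099), and without it *Mlx* passed with the slide as a block (0.019) and without control replicate 4 (0.047), and *Mxd4* with quantile normalization (0.033) and median centring (0.047). *Mycl* (0.17), *Mxd1* (0.16), *Mxd3* (0.14), *Mlxip* (0.17) and *Mnt* (-0.092) passed in neither fit.

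The repressive arm gave changes of another size. Of 25 germ-cell genes of the PCGF6-PRC1 arm 19 were higher (76.0%, against 9.36% of all genes) and 3 lower (against 10.8%) in limma. Their median log2 fold change was 1.75, and 18 of the 19 rose more than 2-fold (2.36% of all genes). Of this list, *Ddx4*, *Dazl*, *Stra8*, *Sycp3*, *Sohlh2*, *Tex101*, *Tex19.1* and *Tex19.2* were named by the study. The whole list was chosen with earlier results of these data known, and the methods describe the *L3mbtl2*-KD cells as sorted for *Vasa*. The direction of the list is therefore not independent evidence. *Tex101* was at -2.34, -3.39, -3.71 and -3.19 in control and at 5.02, 4.78, 5.09 and 5.34 in *L3mbtl2*-KD ESCs (log2 fold change 8.21, adjusted p = 4.9e-06), and *Ctcfl* rose by 4.67 on the log2 scale (adjusted p = 0.00026). The largest falls were those of *Fkbp6* (-2.06, adjusted p = 0.00022) and *Syce1* (-1.54, adjusted p = 0.00024). With the replicate block the counts were again 19 and 3.

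Markers of other cells moved with the groups too. The counts of every marker list stand beside 9.36% of all genes higher and 10.8% lower in limma, and 22.2% and 23.8% with the replicate block. Of 11 feeder fibroblast markers tested, 7 were lower and 1 higher in limma, also with the replicate block, with a median log2 fold change of -2.09 (-1.001 with normexp). *Dcn* and *Col3a1* were not well above background on any *L3mbtl2*-KD array and were at least 12.1-fold and 7.82-fold lower (limma adjusted p = 0.00037 and 0.0012). The gene that rose was *Loxl1* (1.01 on the log2 scale, adjusted p = 0.00097). *Lum*, *Postn* and *Fap* were not well above background on any array. The summed level of the 14 genes, in units of the 75th percentile of an array, was 6.58, 13.4, 11.8 and 14.9 in control and 5.82, 5.60, 6.22 and 6.26 in *L3mbtl2*-KD ESCs, with *Tagln* giving the most (61.1%). Control replicate 1 had the lowest sum of the controls. The methods describe a sort for *Vasa*-positive cells for the *L3mbtl2*-KD samples, and its effect on the share of feeder cells was not tested. The part of feeder cells in the changes of the members was not tested, and fewer cells of a type and less RNA per cell cannot be told apart in such samples.

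Of 8 primitive endoderm markers 6 were lower and 0 higher in limma (0 higher at an unadjusted p under 0.05 and in the one-way test), with a median of -1.77 (-0.74 with normexp, and -1.40 with *Foxa2*, which was not well above background on any *L3mbtl2*-KD array, at its bound of 2.45-fold). The replicate block gave 7 lower and 0 higher. Their summed level was 15.3, 12.7, 12.9 and 16.2 in control and 4.29, 5.50, 4.01 and 2.95 in *L3mbtl2*-KD ESCs, mostly from *Lama1* (81.9%). Of 10 two-cell-like cell markers 8 were higher and 0 lower in limma (5 higher by the adjusted one-way test, and 0 lower at an unadjusted p under 0.05 and in the one-way test), with a median of 1.94 and the same counts with the replicate block, and their sums were 124, 137, 88.1 and 91.0 in control and 191, 185, 122 and 130 in *L3mbtl2*-KD ESCs, mostly from *Sp110* (64.6%), which itself was at -0.022. *Tdpoz4* was not called without control replicate 2, 3 or 4 or *L3mbtl2*-KD replicate 1, 2 or 3 (adjusted p of 0.062 to 0.087). Of 7 trophectoderm markers tested 0 were called in limma in either direction (0 higher and 1 lower at an unadjusted p under 0.05, 0 in the one-way test, and 1 lower without *L3mbtl2*-KD replicate 1), while *Cdx2* (-0.81) and *Krt8* (-0.81) were lower with the replicate block. All 7 were below 0, with a median of -0.38 (-0.15 with normexp) and sums of 9.21, 15.9, 13.5 and 10.3 in control and 7.95, 13.7, 12.7 and 9.38 in *L3mbtl2*-KD ESCs, mostly from *Tfap2c* (62.2%). *Elf5* was not well above background on any array.

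The ESC markers that define the line were present in both groups. Of 14 such markers, all above background in both groups, 1 was higher (*Dppa4*, 0.31, limma adjusted p = 0.030) and 1 lower (*Klf4*, -0.70, adjusted p = 0.027), with a median of -0.23. The replicate block gave 2 higher and 5 lower (35.7%, against 23.8% of all genes). *Dppa4* was not called without any 1 control sample or *L3mbtl2*-KD replicate 3 or 4 (adjusted p of 0.055 to 0.086), nor *Klf4* without control replicate 3 or *L3mbtl2*-KD replicate 3 or 4 (0.068 to 0.071). Their summed level was 347, 355, 337 and 330 in control and 336, 359, 322 and 344 in *L3mbtl2*-KD ESCs, with *Dppa5a* giving the most (45.0%). The part of these other cell types in the small shift of the ribosome biogenesis genes was not tested.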

How the data were processed

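Total RNA of 8 samples was labelled with Cy3 and read on Agilent mouse arrays. The authors deposited spot intensities after background subtraction by Feature Extraction, with no scaling between arrays. A log2 table was deposited as well, which correlated at 0.9999 or more on each array with the values used here after each probe's median was subtracted (39242 probes). The column medians of that table were -0.02, 0.02, 0.05 and -0.02 in control and -0.04, 0.02, -0.06 and 0.08 in *L3mbtl2*-KD ESCs.

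Here the log2 intensities of an array were reduced by their 75th percentile. Control spots and outlier spots were left out, and spots of a probe were averaged. No spot was saturated, and 59.5 to 66.6% of spots per array were well above background. Of 39429 probes 26049 were named through RefSeq (GRCm38.p6), giving 19747 genes. A probe was tested when all 4 arrays of either group had it well above background (23518 probes, of which 78 lacked a value on some array). The probe with the highest mean signal stood for a gene. The comparison used limma (lmFit, eBayes; version 3.58.1, R 4.3.3), and p-values were adjusted by Benjamini-Hochberg over every tested probe. The code was checked on simulated data. A bound sets the brighter group's mean against, on each array of the dimmer group, the lowest signal well above background or the probe's own where higher.

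The arrays lay on 2 slides with both groups on each, but the groups never shared a position. Deviations from group means correlated between samples of the same replicate number (0.58, 0.54, 0.43 and 0.38) and from -0.44 to 0.25 between other samples, so samples were paired by number. The labels state no pairs, and the values alone gave them.

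The members and lists were chosen with earlier results of these data known. All members are named. Values in every sample are given for members at an adjusted p under 0.05 and for the largest change of each role, and from the pathway lists up to 2 of the largest rises and falls are named. Members and list genes given further values were chosen after their values were seen.

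Alternatives were normexp background correction (offset 50), planned on mean and run on median spot intensities, quantile normalization, median centring, the deposited log2 table, other filters on dim probes, blocks for the slide or the replicate number, eBayes with an intensity trend, the study's one-way test, the mean over the probes of a gene, and leaving out each sample. Scalings and left-out pairs with the replicate block were added after seeing the data.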

Additional observations from a re-analysis of the deposited data

Results flagged for a closer look

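In 4 of the 68 groups of 4 values (34 members in both conditions) 1 sample lay far from the other 3. Chance gives about 1 in 20 groups, or 3.4 of 68. *Nop58* in control replicate 1 had 4.21, where the other controls averaged 3.83 (gap to the nearest sample over the whole range 0.832). *Polr1a* in control replicate 1 was at 3.20 against 2.67 (0.835). *Nop2* in control replicate 2 was at 4.01 against 4.28 (0.85). *Ddx18* in *L3mbtl2*-KD replicate 2 was at 3.08 against 3.35 (0.835). Without the sample in question the log2 fold change went from 0.15 to 0.25 for *Nop58*, from -0.080 to 0.054 for *Polr1a*, from 0.33 to 0.26 for *Nop2* and from 0.060 to 0.13 for *Ddx18*. In limma without a block or an intensity trend, none of these was called with or without it. *Nop2* was called with the replicate block, also without the samples of replicate number 2.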

How the results depend on the processing

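The count of members higher, 1 in the analysis as reported, was 6 with the replicate block (against 22.2% of all genes), 3 with the slide as a block (12.9%), 2 with an intensity trend in eBayes (10.5%), 5 (unadjusted) and 0 (adjusted) with the study's one-way test, 0 without the filter on dim probes (3.75% of all genes), and 0 to 3 with 1 sample left out. The count of members lower and that past 2-fold were 0 under every alternative. The count past 1.5-fold was 0 with all samples (*Bop1* and *Pes1* passed 1.5-fold with some samples left out). The members' median log2 fold change and *L3mbtl2* kept their direction, and *L3mbtl2* its call, under all alternatives run. With the replicate block and other scalings, chosen after seeing the data, 10 members were higher with median centring (24.5% of all genes), 8 with normexp (23.8%) and 5 with quantile normalization (22.2%), and 4 to 5 without a pair of samples (12.3 to 16.8%), with 0 lower. *Nolc1*, *Rrp12*, *Bop1* and *Nop2* were among those called in each of these blocked fits. For groups without overlap, 1 member (*Gnl3*) was lower with normexp and 1 with quantile normalization.

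Of the other small-subunit assembly genes, 7 were higher as reported, 20 with the replicate block, 2 without the filter on dim probes, 4 (adjusted) and 16 (unadjusted, 1 lower) with the one-way test, and 2 to 7 with 1 sample left out. Of the large-subunit genes, 6 were higher as reported, 29 with the block (2 lower), 2 without the filter, 3 (adjusted) and 20 (unadjusted) with the one-way test, and 2 to 9 with 1 sample left out, and 1 was lower with normexp, quantile normalization, the slide block, the trend, the one-way test and the mean over probes. Of the ribosomal protein genes, 1 was lower as reported, 14 with the replicate block, 5 with the slide block, 3 with normexp, 2 with quantile normalization, 10 with the trend, 7 and 19 with the one-way test, 4 with the mean over probes, 0 without the filter and 0 to 2 with 1 sample left out. Without the filter more probes were tested, and with a sample left out fewer samples entered. Otherwise the cause was not tested.

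Members close to 0 turned sign, none of them called: *Dkc1* with normexp (-0.0086) and quantile normalization (-0.029), *Ubtf* with quantile normalization (0.034) and median centring (0.012), *Nme1* with quantile normalization (-0.025), *Fbl* with median centring (0.0064), and with the mean over probes *Ncl* (-0.070) and *Ldha* (-0.084). With 1 sample left out the ranges were -0.054 to 0.029 for *Fbl*, -0.12 to 0.15 for *Dkc1*, -0.17 to 0.054 for *Polr1a*, -0.11 to 0.083 for *Ubtf*, -0.12 to 0.12 for *Wdr12*, -0.030 to 0.090 for *Utp20*, -0.027 to 0.15 for *Srm*, -0.054 to 0.12 for *Nme1* and -0.0048 to 0.041 for *Ldha*. E-boxes were in 9 member promoters with 250 and with 100 bases before the start, whereas those of ribosomal protein genes fell from 6 to 2 and those of the MYC and MAX network from 5 to 3. All members were well above background on every array. The dimmest was *Cad*, at a mean of -2.79 in control, where the median tested probe of control replicate 1 was at -0.77. Whether low signal narrowed the change of *Cad* was not tested.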
